A study of Mus musculus with 6 samples.

Results

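Inpp4b, Inpp5d, Pik3cd, Pik3r1, Pik3ip1, Akt1, Foxo1 and Foxo3 encode lipid phosphatases, kinase subunits and transcription factors of the phosphoinositide 3-kinase (PI3K) pathway. They were chosen as a named list, with earlier results of these data known. Matched by symbol, all 8 of them were in the table of gene expression, among 17985 genes. RNA-seq had been run on thymic iNKT1 cells, the T-bet-positive, interferon-producing kind of invariant natural killer T cell, from untreated mice of C57BL/6 background. The control group (Ctrl, 3 libraries) had the genotype Tbx21CreTg;Rosa26-LSL-YFP+/+ and the conditional knockout group (cKO, 3 libraries) had Tbx21CreTg;Rosa26-LSL-YFP+/+;Tgfbr2F/F. Both groups thus carried the Cre transgene driven by Tbx21, the gene of T-bet, and the Cre-activated yellow fluorescent protein reporter, and they differed in the floxed alleles of Tgfbr2, a receptor subunit for TGF-beta. Cre acts only in cells that express or have expressed the transgene. The comparison asks how transcripts of the pathway differ in these cells when the receptor gene is targeted. Age and sex were not in the labels, which call the replicates independent but name no animals, so p-values measure the spread between these libraries. In bulk RNA, fewer cells that express a gene and less of its RNA per cell cannot be told apart.

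Class I PI3K, a catalytic subunit such as p110-delta (Pik3cd) held by a regulatory subunit such as p85-alpha (Pik3r1), phosphorylates a membrane lipid to PIP3 after antigen or cytokine receptor signals. PIP3 recruits and activates the kinase AKT, which phosphorylates FOXO transcription factors so that they leave the nucleus. SHIP1 (Inpp5d) removes the 5-phosphate from PIP3, and INPP4B removes the 4-phosphate from the product of that step. In T cells FOXO1 is known for keeping up transcription of Klf2, Il7r and Ccr7, genes of circulation and survival.

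Inpp4b was the member with the difference between groups, and its start region and active site are printed for that reason. The promoter window lies at chr8:81342312-81342611 (RefSeq, GRCm38.p6, plus strand). It is 300 bases long with 68.3% G or C and 25 CpG dinucleotides, and the capitals mark the 50 bases from the annotated start onward.
Inpp4b promoter: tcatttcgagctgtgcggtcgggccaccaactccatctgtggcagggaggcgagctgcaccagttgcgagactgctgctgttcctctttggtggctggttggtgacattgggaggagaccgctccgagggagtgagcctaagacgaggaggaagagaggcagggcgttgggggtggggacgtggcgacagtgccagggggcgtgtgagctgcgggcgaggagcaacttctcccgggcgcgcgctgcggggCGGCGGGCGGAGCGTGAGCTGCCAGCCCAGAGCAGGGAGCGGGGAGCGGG
Of 32851 promoter windows of this length, 49.6% held CAGAC, the short SMAD-binding sequence, on either strand, 0.213% held the palindrome GTCTAGAC and 3.65% held the forkhead sequence GTAAACA. The palindrome, read in full, does not contain CAGAC. None of these letters was found in the Inpp4b window. CAGAC was in 4 of the 12 windows that RefSeq lists for the 8 genes, all of Pik3cd or Akt1, and GTAAACA was in 1, of Akt1.

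INPP4B and its paralog INPP4A share the catalytic CX5R signature of phosphatases. The coding bases around it were read from GENCODE M21 transcripts (GRCm38) for Inpp4b at chr8:82071699-82071755 and Inpp4a at chr1:37398784-37398840, both on the plus strand and each within 1 exon. The capitals mark the 7 codons of the signature, codons 845 to 851 of Inpp4b and 895 to 901 of Inpp4a.
Inpp4b: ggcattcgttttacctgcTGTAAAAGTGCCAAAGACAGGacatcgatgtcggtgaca
Inpp4a: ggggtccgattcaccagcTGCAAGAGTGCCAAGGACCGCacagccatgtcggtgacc
These stretches were identical at 43 of 57 bases, and at 16 of the 21 in capitals. FOXO1 and FOXO3 are the substrates through which AKT acts in this arm, and the coding bases of the site in their forkhead region are set side by side. They lie at chr3:52345141-52345194 (plus strand) and chr10:42197746-42197799 (minus strand). The capitals mark the AKT recognition codons, 248 to 253 in Foxo1 and 247 to 252 in Foxo3.
Foxo1: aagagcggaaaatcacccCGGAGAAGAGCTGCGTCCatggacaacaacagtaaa
Foxo3: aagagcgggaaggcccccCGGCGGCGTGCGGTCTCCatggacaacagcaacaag
Here 39 of 54 bases were identical, and 11 of the 18 in capitals, although both code for an AKT site.

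The deposited values were CPM, read counts scaled by the reads of the library, and library totals ran from 28832779 to 68092478 reads. The 15691 genes that averaged 1 CPM or more were tested with limma on log2(CPM + 1). Fold changes are cKO over Ctrl on that scale, and a gene passed at a Benjamini-Hochberg adjusted p under 0.05 over all tested genes. Replicate 3 stood apart: the first principal component held 85.1% of the variance and set the pair of replicate 3 libraries apart, and 4406 and 4590 genes were at 0 in them against at most 5 in the others. Same-numbered libraries deviated together from their group means (r = 0.855, 0.687 and 0.924 over 15691 genes), so values from a fit with the replicate number as a block are also given. Unmatched libraries of replicates 1 and 2 did so too: Ctrl replicate 2 with cKO replicate 1 had r = 0.718, and Ctrl replicate 1 with cKO replicate 2 had 0.578. The correlations thus set replicate 3 apart but do not show that 1 belongs with 1 and 2 with 2. The targeted gene Tgfbr2 fell from 449 ± 20.7 to 274 ± 16.1 CPM (SD, n = 3 libraries each, limma adjusted p 0.0207, with the block 0.00160). The authors' deposited table gave it a log2 fold change of -0.64 with an adjusted p of 0.373. These values count reads over the whole gene, not by exon, so they do not measure how far the floxed alleles were deleted. The 8 iNKT1 markers, among them Tbx21, Il2rb and Trac, summed to 6734 to 8716 CPM in Ctrl against 7049 to 9999 CPM in cKO. Of the 8, 1 passed in limma without the block and 2 with it, against 0.663% and 2.87% of all tested genes. The sum joins genes of unlike direction: Il2rb ran from 2357 to 3521 CPM in Ctrl and 2948 to 4383 CPM in cKO, and Cd3e from 1293 to 1479 CPM and 1126 to 1358 CPM. The 3 double-positive thymocyte markers in the table (Rag1, Cd8b1, Dntt) summed to 4.72 to 8.30 CPM in Ctrl and 7.92 to 12.1 CPM in cKO, the 2 B cell markers (Cd79a, Ms4a1) to at most 11.0 CPM and the 3 myeloid markers (Lyz2, Csf1r, Itgam) to at most 8.56 CPM in any library. The 3 iNKT2 markers (Il4, Il17rb, Gata3) summed to 232 to 270.1 CPM in Ctrl and 197 to 237 CPM in cKO, and 0 of them passed in limma without the block and 1 with it. The part of these cells in the results was not tested.

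Of the 8 genes, 1 passed, Inpp4b, which fell. The background was 0.663% of all tested genes past the threshold, 0.459% lower and 0.204% higher. Because the 8 were chosen with earlier results of these data known, no weight is put on 1 of 8 against that share. With the replicate block the same gene passed and no other, against a background of 2.87% in either direction, 1.64% lower and 1.24% higher. In CPM without further scaling, Ctrl and cKO libraries were fully separated for 2 of the 8, Inpp4b and Pik3cd, against 11.0% of tested genes whose groups did not overlap. The median log2 fold change of the 8 was 0.072, and that of all tested genes was -0.038.

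**Figure D1:**
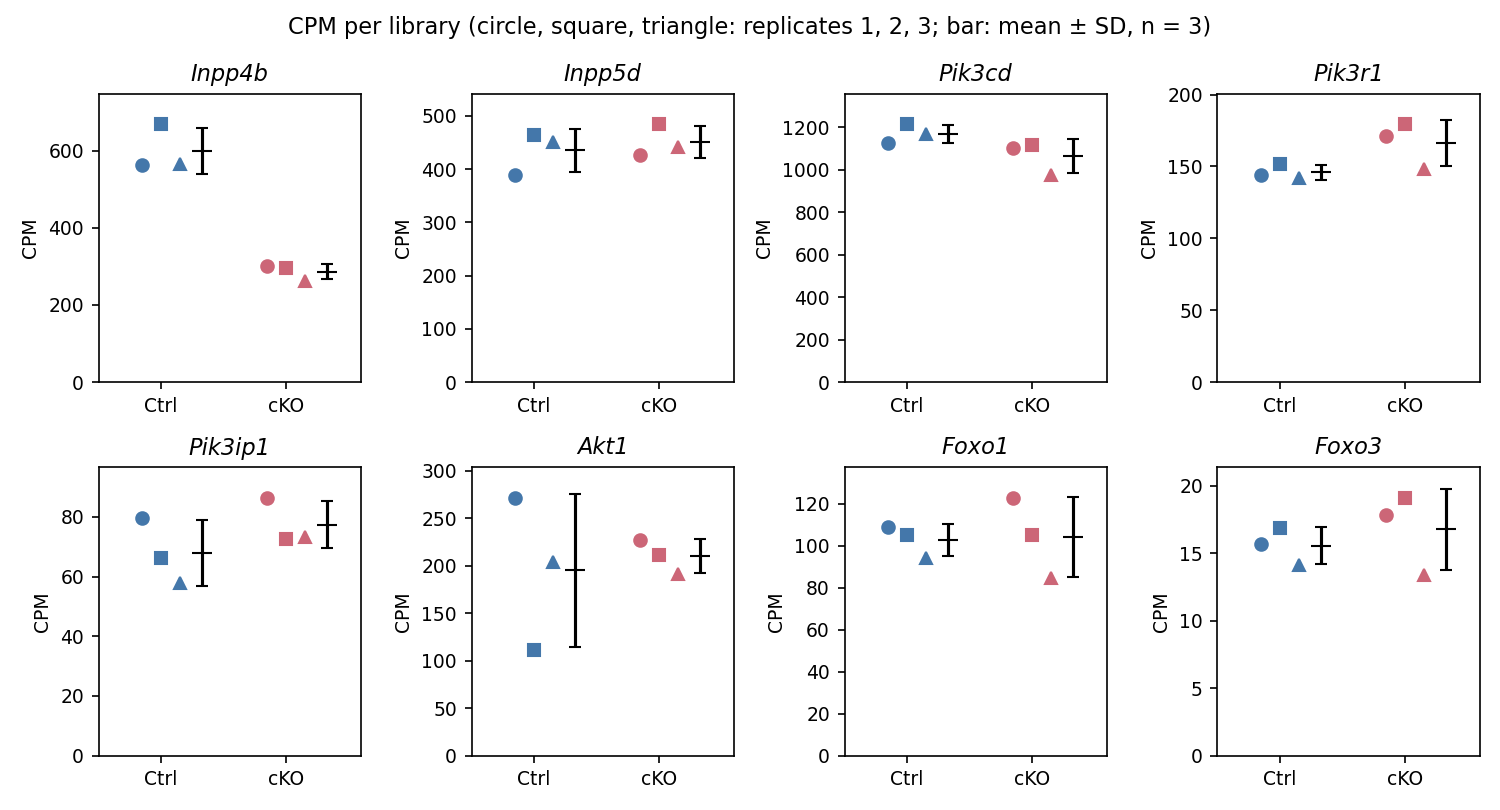
CPM of each of the 8 genes in the 3 Ctrl and 3 cKO libraries, on linear axes that start at 0 and differ between panels. Circles, squares and triangles are replicates 1, 2 and 3, and the black bars are the mean ± SD. Inpp4b lies at 562 to 668 CPM in Ctrl and 263 to 299.8 CPM in cKO, while Akt1 has 1 low Ctrl library at 110.8 CPM.

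Among the phosphatases, Inpp4b (ENSMUSG00000037940, chromosome 8, 81342556 to 82125036, plus strand) read 562, 668 and 566 CPM in Ctrl (replicates 1, 2 and 3) against 299.8, 297 and 263 CPM in cKO. Every cKO library lay below every Ctrl library, and the gap between the groups was wider than the spread within either. The mean fell from 598 ± 60.1 to 287 ± 20.3 CPM (SD, n = 3 each), or to 47.9% of Ctrl. The log2 fold change was -1.06 (standard error 0.10, 95% interval -1.30 to -0.81), and limma's adjusted p was 0.0114, or 0.000229 with the replicate block. The same-numbered pairs differed by -0.90, -1.17 and -1.10, so replicate 3, which stood apart across genes, gave a like difference. In replicates 1 and 2 alone the log2 fold change was -1.04 (limma adjusted p 0.000550). The authors' deposited table gave a log2 fold change of -0.999 with an adjusted p of 0.00194. Leaving out 1 library without the block, Inpp4b stayed between -1.10 and -0.98 but did not pass without Ctrl replicate 1 (limma adjusted p 0.0590), Ctrl replicate 2 (0.0807), Ctrl replicate 3 (0.0513) or cKO replicate 2 (0.0720). With the block it passed in all 6 such fits. Among the 2497 tested genes with a Ctrl mean of at least 100 CPM, 21 including Inpp4b had a log2 fold change as low or lower, and 25 of the 2497 passed as lower. A set chosen by its Ctrl level admits genes that are high only in Ctrl and leaves out those high only in cKO.

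Inpp5d (ENSMUSG00000026288, chromosome 1, 87620312 to 87720507, plus strand), the gene of SHIP1, read 388.9, 464 and 451 CPM in Ctrl against 427, 484 and 440.5 CPM in cKO. The groups overlapped, and replicate 1 was the lowest library in each. The means were 435 ± 40.3 and 450.5 ± 29.6 CPM (SD, n = 3 each). Inpp5d had a log2 fold change of 0.053 with a 95% interval of -0.19 to 0.29 (limma adjusted p 0.99998, with the block 0.850), so these libraries allow a difference of up to about 1.22-fold in the cKO and leave its sign undetermined. RefSeq lists 1 promoter window for it, with 53.7% G or C and 6 CpG dinucleotides.

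The balance of the phosphatase transcripts was read as a ratio per kilobase of exon within each library, which needs no scaling between libraries. Inpp4b to Inpp5d was 0.840, 0.836 and 0.729 in Ctrl and 0.408, 0.357 and 0.348 in cKO. Every cKO ratio was below every Ctrl ratio, and the mean log2 ratio differed by -1.11. Inpp4b to Inpp4a had means of 45.4 ± 6.77 in Ctrl and 19.5 ± 4.98 in cKO (SD, n = 3 each), again without overlap. These are 2 of 8 ratios computed, chosen after values were seen, and each of the 2 had the smallest p that an exact two-sided permutation test allows here (0.1, or 0.16 after Benjamini-Hochberg adjustment over the 8). Inpp4a itself averaged 10.7 ± 2.57 CPM in Ctrl against 12.4 ± 4.01 CPM in cKO and did not pass (limma adjusted p 0.99998, log2 fold change 0.17).

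**Figure D2:**
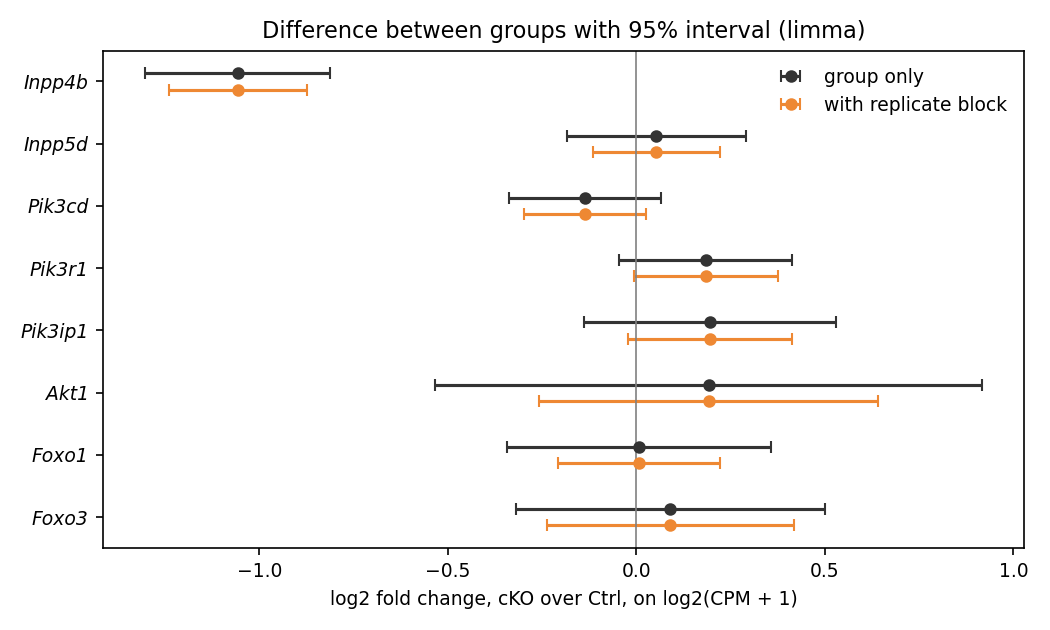
Log2 fold change of the 8 genes, cKO over Ctrl on log2(CPM + 1), with 95% intervals from limma without (dark) and with (orange) the replicate block. The interval of Inpp4b, -1.30 to -0.81 without the block, lies below 0, and the intervals of the other genes include 0 in both fits.

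The catalytic subunit gene Pik3cd (ENSMUSG00000039936, chromosome 4, 149649168 to 149702571, minus strand), whose product p110-delta is the main PI3K catalytic subunit of lymphocytes, read 1125, 1212 and 1166 CPM in Ctrl against 1101, 1116 and 974 CPM in cKO. In these CPM the groups did not overlap, but the gap between the highest cKO and lowest Ctrl library was small. TMM scaling, a further correction of library size, had factors of 1.03 for Ctrl replicate 1 and 0.990 for cKO replicate 2. Divided by these, cKO replicate 2 lies above Ctrl replicate 1, so the groups overlap. The means were 1168 ± 43.5 and 1064 ± 78.4 CPM (SD, n = 3 each). The log2 fold change was -0.14, with a 95% interval of -0.34 to 0.066. Pik3cd did not pass (limma adjusted p 0.99998, with the block 0.503), and with TMM scaling its log2 fold change was -0.093. The pairs differed by -0.031, -0.12 and -0.26, so replicate 3 gave the largest of the 3 differences.

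The regulatory subunit gene Pik3r1 (ENSMUSG00000041417, chromosome 13, 101680563 to 101768217, minus strand), which encodes p85-alpha and its shorter forms, read 144, 152 and 142 CPM in Ctrl against 171.5, 179 and 148 CPM in cKO. It was higher in cKO in all 3 pairs, while cKO replicate 3 lay below Ctrl replicate 2. For Pik3r1 the log2 fold change was 0.18 with a 95% interval of -0.047 to 0.41 (limma adjusted p 0.99998, with the block 0.418). DESeq2 on the recovered reads gave 0.24 with an adjusted p of 0.00712, so this gene passed under that tool and under no other fit run. The ratio of Pik3cd to Pik3r1 per kilobase was 12.6, 12.9 and 13.2 in Ctrl and 10.3, 10.03 and 10.6 in cKO. The ratios of the groups did not overlap and were closer within each group than the levels of either gene (exact two-sided permutation p = 0.1, the smallest possible, adjusted 0.16).

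Pik3ip1 (ENSMUSG00000034614, chromosome 11, 3330401 to 3342971, plus strand) encodes a membrane protein that inhibits the catalytic subunit. It read 79.6, 66.2 and 57.8 CPM in Ctrl against 86.3, 72.6 and 73.3 CPM in cKO. Each cKO library was above its same-numbered Ctrl library, and the groups overlapped. The log2 fold change was 0.19 with a 95% interval of -0.14 to 0.53 (limma adjusted p 0.99998, with the block 0.458). The annotated gene Gm12592 overlaps it, and since strand-specific counting is not given in the sources used here, reads of the overlap cannot be told apart.

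Akt1 (ENSMUSG00000001729, chromosome 12, 112653821 to 112674884, minus strand), 1 of the 3 genes of the kinase that PIP3 activates, read 271, 110.8 and 204 CPM in Ctrl against 227, 211.5 and 191 CPM in cKO. The cKO libraries lay close together, while Ctrl held both the highest and the lowest library, for a coefficient of variation of 41.3%. The means were 195 ± 80.6 and 209.8 ± 17.9 CPM (SD, n = 3 each). The log2 fold change was 0.19 with the widest interval of the 8 genes, -0.53 to 0.92 (limma adjusted p 0.99998, with the block 0.783), and it was -0.17 without Ctrl replicate 2. In that library Akt1 was 0.78 log2 units below the lowest other library, and of 10141 genes that averaged 5 CPM or more only 8 were further below. These, found after values were seen, were Klrb1c, Klri2, Klrc1, Klra3, Ybx3, Klrb1b and Klra9, all on chromosome 6, and Mapk11. Klrb1c, the gene of the NK1.1 antigen and an iNKT1 marker here, was at 179.9 CPM in Ctrl replicate 2 and between 566 and 1021 CPM in the other 5. Whether the low Akt1 value is tied to the low killer-receptor transcripts of that library was not tested.

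The transcription factor genes at the end of the arm did not pass in either fit. Foxo1 (ENSMUSG00000044167, chromosome 3, 52268336 to 52353221, plus strand) read 108.9, 105 and 94.0 CPM in Ctrl against 122.7, 105 and 84.6 CPM in cKO. The groups overlapped, cKO spanned the wider range, and replicate 3 was the lowest library of each group. Its log2 fold change was 0.0067 with a 95% interval of -0.34 to 0.36 (limma adjusted p 0.99998, with the block 0.990). Foxo3 (ENSMUSG00000048756, chromosome 10, 42181841 to 42276755, minus strand) read 15.7, 16.8 and 14.1 CPM in Ctrl against 17.8, 19.1 and 13.4 CPM in cKO, with replicate 3 again the lowest of each group. Its log2 fold change was 0.090 with a 95% interval of -0.32 to 0.50 (limma adjusted p 0.99998, with the block 0.873). The ratio of Foxo1 to Foxo3 per kilobase had means of 5.78 ± 0.308 in Ctrl and 5.46 ± 0.608 in cKO (SD, n = 3 each, exact two-sided permutation p = 0.6). Protein phosphorylation and location, by which AKT controls these factors, are not measured by RNA-seq.

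Levels of different genes were compared as CPM per kilobase of exon (union of annotated exons). In Ctrl the order was Pik3cd at 187 ± 6.94, Inpp5d at 57.2 ± 5.31, Akt1 at 47.7 ± 19.7, Inpp4b at 45.8 ± 4.60, Pik3ip1 at 15.9 ± 2.57, Pik3r1 at 14.5 ± 0.499, Foxo1 at 11.9 ± 0.900 and Foxo3 at 2.05 ± 0.179 (mean ± SD, n = 3). The mean ± SD ranges of Akt1 and Inpp4b, of Akt1 and Inpp5d, and of Pik3ip1 and Pik3r1 overlapped, and those of the other neighbours did not. In cKO the order was the same, but Inpp4b at 21.9 ± 1.55 lay well below Akt1 at 51.2 ± 4.38 and nearer to Pik3ip1 at 18.1 ± 1.81. Pik3cd was also far above the other catalytic subunit genes, with Pik3cg at 21.5 ± 1.79, Pik3ca at 6.71 ± 2.21 and Pik3cb at 3.02 ± 0.318 per kilobase in Ctrl.

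The rest of the pathway was described with a list of other PI3K genes, 55 of which were tested. Without the block 1 rose, 0 fell and 54 did not pass by limma, where 7 had an unadjusted p under 0.05, against 6.02% of all tested genes. With the block 2 rose, among them Txnip, 1 fell (Pik3cg) and 52 did not pass, against 2.87% of all tested genes called. In that fit 13 had an unadjusted p under 0.05, against 12.6% of all tested genes. The median log2 fold change of the list was -0.057. DESeq2 called 7 of the list and 554 genes in all. Without the block edgeR called 0 of the list, where 8 had an unadjusted p under 0.05, and 41 genes in all.

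**Figure D3:**
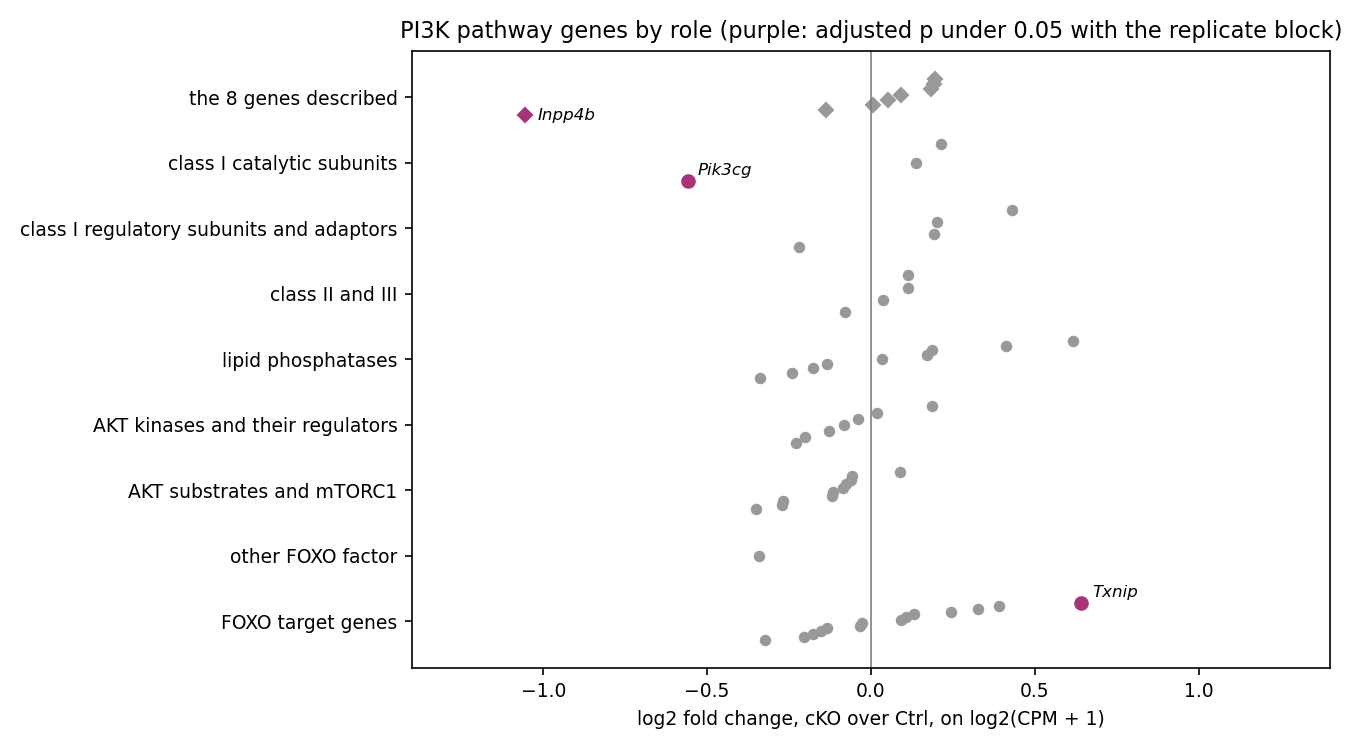
Log2 fold change, cKO over Ctrl, of the 8 genes (diamonds) and of 52 other tested PI3K pathway genes (circles) by role, spread vertically by rank. Purple marks an adjusted p under 0.05 in limma with the replicate block: Inpp4b at -1.06, Pik3cg at -0.56 and Txnip at 0.64.

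Among the 3 other class I catalytic subunits was Pik3cg, which encodes p110-gamma, a subunit used by G protein-coupled receptors. Pik3cg read 182, 195.7 and 165.5 CPM in Ctrl against 133, 114 and 120.03 CPM in cKO. All cKO libraries lay below all Ctrl libraries. It fell with the replicate block (log2 fold change -0.56, limma adjusted p 0.0157) and did not pass without it (0.101). With the block it also did not pass without Ctrl replicate 2 or without cKO replicate 2, with limma adjusted p values of up to 0.124. Both of these fits rest on the same pairs of libraries. The ratio of Pik3cd to Pik3cg per kilobase had means of 8.71 ± 0.663 in Ctrl and 11.7 ± 1.24 in cKO (SD, n = 3 each, exact two-sided permutation p = 0.1, the smallest possible, adjusted 0.16).

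No gene of the next 6 roles, with 4, 4, 10, 8, 10 and 1 tested genes, passed in either limma fit. Of these genes, 3 without the block and 8 with it had an unadjusted p under 0.05 (background 6.02% and 12.6%). For 5 of the roles the gene with the smallest blocked p is named. Of the 4 tested regulatory subunits and adaptors it was Pik3r2, the gene of p85-beta, with a log2 fold change of 0.43 (limma adjusted p with the block 0.231). Of the 4 class II and III genes it was Pik3c3, the gene of VPS34, with 0.11 (0.757), and of the 10 other lipid phosphatases Inppl1, the gene of SHIP2. Inppl1 averaged 13.4 ± 3.23 CPM in Ctrl against 20.7 ± 2.05 CPM in cKO (SD, n = 3 each), and its log2 fold change was 0.62 (95% interval 0.14 to 1.09). Its groups did not overlap, and its limma adjusted p was 0.567, or 0.109 with the block. Of the 10 AKT substrates and mTORC1 genes the named gene was Mtor, the kinase of that complex, with -0.27 (limma adjusted p with the block 0.342), and Foxo4 was at -0.34 (0.574). Median log2 fold changes of these roles lay between -0.10 for AKT kinases and their regulators and 0.20 for regulatory subunits, Foxo4 aside.

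Among the 15 tested FOXO target genes was Txnip, which encodes a thioredoxin-binding inhibitor of glucose uptake. It read 686, 610.1 and 502 CPM in Ctrl against 1070.3, 902 and 829 CPM in cKO. The groups did not overlap, and it rose with the block (log2 fold change 0.64, limma adjusted p 0.00158) but did not pass without it (0.232).

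Of the 15 targets, 13 did not pass in either fit. In limma 1 rose without the block and 2 with it, against 0.204% and 1.24% of all tested genes. The 1 that rose in both fits is not reported by name here, so the genes below do not stand for all 15. The T cell targets named in the background, picked after values were seen, had log2 fold changes of 0.11 for Klf2, -0.15 for Il7r and 0.39 for Ccr7 (limma adjusted p 0.99998 each). The Ccr7 value rested on cKO replicate 3, which read 7.95 CPM against 0.690 to 2.002 CPM in the other 5 libraries, and it was -0.33 without that library. Klf2 ranged from 106.5 to 260.2 CPM in Ctrl and from 126 to 338 CPM in cKO, with replicate 1 the highest of each group. The median log2 fold change of the 15 was 0.091. GTAAACA was in 3 of the 13 RefSeq promoter windows found for 11 of these targets, those of Bcl2l11, Sesn1 and Txnip.

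Genes near Inpp4b were examined to see whether the difference extended along the chromosome. Of 7 genes within 1000 kb of it in the table, 6 were tested and none passed in limma without or with the block, with log2 fold changes from -0.15 for Il15 to 0.29 for Gm9725. The smallest unadjusted limma p with the block among them was 0.142. The 3 with the narrowest 95% intervals were Smarca5 (-0.23 to 0.29), Usp38 (-0.39 to 0.15) and Zfp330 (-0.19 to 0.27). Around Pik3cd, 1 of 21 tested neighbours passed in limma without and with the block, Spsb1, whose product directs bound proteins to degradation, with a log2 fold change of -4.61 (adjusted p 0.00444) against -0.14 for Pik3cd itself. With the block only, limma also called 4 of 32 tested neighbours of Akt1 (Ckb at 0.77, Jag2 at -1.003, Cep170b at -1.15 and Ighd at -1.74) and 1 of 18 of Foxo3 (Armc2 at 1.25). These windows were chosen after values were seen. Of all tested genes, limma called 0.663% without the block and 2.87% with it.

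**Figure D4:**
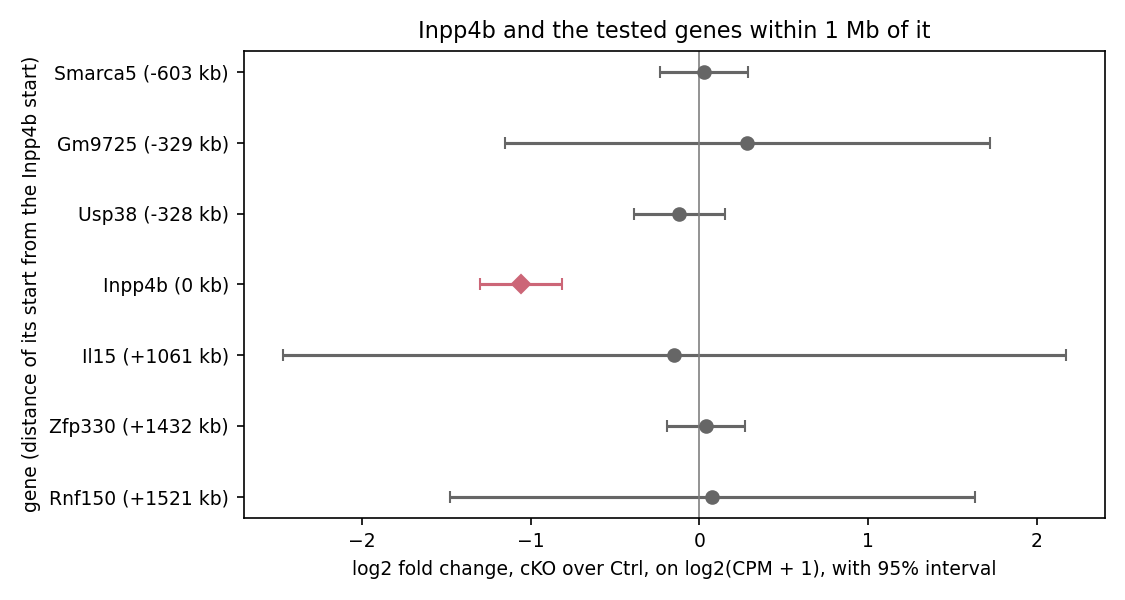
Log2 fold change, cKO over Ctrl on log2(CPM + 1), with 95% intervals from limma, for Inpp4b (diamond) and the 6 tested genes within 1000 kb of it (circles), ordered along the chromosome with the distance of each start from the Inpp4b start. Inpp4b is at -1.06 and its neighbours lie between -0.15 and 0.29, with wide intervals for the low genes Il15, Gm9725 and Rnf150.

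The genes whose levels over the 6 libraries were most like those of Inpp4b were sought among 10140 genes that averaged 5 CPM or more, by Pearson's r of log2(CPM + 1). They were Skil at 0.998, Ly6g5b at 0.995, Phactr2 at 0.992, Cdh1 at 0.990 and Zfp1 at 0.990. This is a description over 6 libraries that share groups and replicate numbers. Their log2 fold changes were -2.31, -1.11, -0.98, -6.20 and -1.41 in that order, a direction that choosing them for likeness fixes. Phactr2 (limma adjusted p 0.0933) and Zfp1 (0.0520) did not pass without the block. Skil encodes a repressor in TGF-beta signalling and Cdh1 encodes E-cadherin. The log2 fold changes of Ly6g5b and Phactr2 were the closest to that of Inpp4b.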

How the data were processed

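RNA was measured in 3 Ctrl and 3 cKO libraries. Per the submitters' processing notes, reads were handled with Trimmomatic 0.33, STAR 2.5.2, HTSeq 0.6.1 and edgeR on build mm10; strandedness is not given in the sources used here. Libraries were made with an ultra-low-input kit and read at 75 bases, per the labels. The authors deposited 1 table with CPM per library, and per the file headers added for each gene its log2 fold change, mean log2 CPM, p-value with its adjusted form, and the score of a likelihood-ratio test. The columns named WT and KO were taken as Ctrl and cKO by replicate number. Every CPM value was a whole multiple of 1 read (100% within a tolerance of 0.001), so reads were recovered for edgeR and DESeq2, which served as alternatives.

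The test was limma 3.58.1 (R 4.3.3) on log2(CPM + 1) with a mean of at least 1 CPM, no term other than group, robust moderation and a trend of variance on mean, two-sided, adjusted over all 15691 genes. The scale understates changes of low genes. The same-numbered libraries correlated in their deviations from group means (0.855, 0.687 and 0.924), which is the only ground for pairing them. That ground holds for replicate 3 but not for telling replicates 1 and 2 apart, since Ctrl replicate 2 with cKO replicate 1 had 0.718. Alternatives were the replicate block, other pseudocounts and filters, TMM scaling, edgeR 4.0.16, DESeq2 1.42.0, replicates 1 and 2 alone, and leaving out each library. Limma without and with the block and edgeR without it were run on simulated counts. Those counts held no replicate effect and no shift of replicate 3, so they do not show how the fits behave on these libraries.

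The 8 genes, the pathway list and the marker lists were chosen with earlier results of these data known. All 8 genes and Tgfbr2 are named. From each role of the list, up to 4 genes past the threshold without or with the block are named, and where none passed, the one with the smallest blocked p. Likeness names the 5 highest correlations. Ratios, neighbours and other genes named were chosen after values were seen. Some genes of these lists are not reported by name here. Foxo6 and markers without a row were not analysed here, and Pik3r6 was under the filter. Exon lengths came from GENCODE M21, and promoter windows from RefSeq on GRCm38.p6. Positions are those of the deposited table.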

Additional observations from a re-analysis of the deposited data

How the results depend on the processing

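Inpp4b stayed between -1.06 and -1.01 and past the threshold in all 11 alternatives that used no left-out library, and its limma adjusted p with the replicate block was 0.000229. Leaving out 1 library, it ran from -1.10 to -0.98 without the block, passing in 2 of 6, and from -1.13 to -1.0 with the block, passing in 6 of 6; the fits with both were added after seeing the data. Pik3r1 was at 0.24 and past the threshold under DESeq2, which made 2 members called, and 0 to 1 passed with 1 library left out. Those fits changed the sign of genes near 0: over them Inpp5d ran from -0.025 to 0.10, Akt1 from -0.17 to 0.47 (with the block -0.18 to 0.42), Foxo1 from -0.12 to 0.15 (with the block -0.075 to 0.085) and Foxo3 from -0.0058 to 0.24. Leaving out a replicate 3 library moved the median of all genes by up to 0.13 log2 units without the block.

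Against 1 pathway gene and 104 genes in all, the replicate block gave 3 and 451, TMM with the block 4 and 513, edgeR 0 and 41 (8 pathway genes at an unadjusted p under 0.05), edgeR with the block 3 and 469, DESeq2 7 and 554, and replicates 1 and 2 alone 3 and 296. With 1 library left out the counts ran from 0 to 1 and from 14 to 97. With the block as well, the pathway count ran from 2 to 8, and all genes numbered 360, 385 and 963 without Ctrl replicates 1, 2 and 3, and 362, 382 and 992 without cKO replicates 1, 2 and 3. Here too, the fits without either library of a pair rest on the same pairs. DESeq2 gave 3955 genes no adjusted p. The cause of these differences was not tested. With 3 libraries a group, the 95% intervals of the 7 members that did not pass allow differences of up to 0.29 (Inpp5d) to 0.92 (Akt1) log2 units.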
